A study of Mus musculus with 4 samples.

Results

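The Rassf family comprises Rassf1 to Rassf10, genes of scaffold proteins that carry a Ras association domain. Members were the genes of this family whose probe set lists exactly 1 gene symbol, which gave 9 of the 10 genes, out of 22180 genes with such a probe set. Only Rassf1 was left out, because the probe set that lists it also lists Gm9917. The family was chosen by the log2 intensities of Rassf4 on these arrays, which were at background in wild-type cells and higher in knockout cells. The values of its members in this contrast are therefore a description, with no test.

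Expression was measured on 4 Affymetrix arrays of mouse skeletal stem cells (SSCs): 2 arrays of Mmp14 knockout cells (genotype Mmp14-/-) and 2 of Mmp14 wild-type cells (Mmp14+/+). The mice were 4 to 6 weeks old, and all cells spent 48 h in 3D collagen gel. Mmp14 encodes MT1-MMP, a collagen-cleaving protease anchored in the cell membrane. Not stated in the labels are the deleted part of Mmp14, whether animals were pooled and whether the 2 arrays of a group came from separate animals or cultures, so the spread between them may be technical.

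RASSF proteins have no known enzyme activity and act by bringing partners together. Rassf1 to Rassf6 form the C-terminal class: their Ras association domain binds Ras-like GTPases, and a SARAH domain behind it binds the Hippo pathway kinases MST1 and MST2 (genes Stk4 and Stk3). Rassf7 to Rassf10 form the N-terminal class, with the Ras association domain near the other end and no SARAH domain. In human tumours several RASSF genes are silenced by methylation of CpG-rich promoters, and in mice loss of Rassf2 disturbs bone remodelling.

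The promoter sequences of Rassf4 and Rassf2 are shown because these members lay far apart in the comparison: Rassf4 was higher and Rassf2 was lower in knockout than in wild-type arrays. Of the 10 genes, 6 had an entry in the RefSeq promoter table (GRCm38.p6), and Rassf3 had none. Each line holds the 250 bases before the annotated start, 5′ to 3′ on the strand of the gene, and capitals mark CpG dinucleotides. For Rassf4 the window is chr6:116673837-116674086 and for Rassf2 it is chr2:132030325-132030574, both on the minus strand.
Rassf4: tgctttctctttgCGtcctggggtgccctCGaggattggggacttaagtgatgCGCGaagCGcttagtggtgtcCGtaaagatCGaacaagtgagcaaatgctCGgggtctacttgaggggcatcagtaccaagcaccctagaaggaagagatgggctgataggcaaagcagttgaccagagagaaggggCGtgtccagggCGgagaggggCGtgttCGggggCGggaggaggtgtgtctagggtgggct
Rassf2: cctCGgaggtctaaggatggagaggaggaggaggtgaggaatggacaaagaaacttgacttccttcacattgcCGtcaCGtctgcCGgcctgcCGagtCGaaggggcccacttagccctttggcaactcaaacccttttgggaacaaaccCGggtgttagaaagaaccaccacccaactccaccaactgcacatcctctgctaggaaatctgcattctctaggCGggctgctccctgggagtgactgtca
The Rassf4 window held 13 CpG dinucleotides and the Rassf2 window 8, against a median of 6 over the 32851 windows of the table (quartiles 2 and 16). Methylation was not measured here. The letters GGAATG, which the Hippo pathway's TEAD factors bind, were searched on both strands; they occurred 1 time in the Rassf2 window and 0 times in the Rassf4 window, and 12.6% of all windows hold them. The AP-1 letters TGANTCA occurred in neither window and in 6.75% of all windows.

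Signals are deposited log2 intensities. A limit of 2.34 log2, the median of the row means of all 41345 probe sets, marks dim signal; detection calls were not used here, so levels near it cannot be told from background. Genes with a mean over the 4 arrays of at least this limit were tested, which left 12708 genes and 7 of the 9 members. A gene was called when its limma adjusted p was below 0.05, and every difference is the knockout mean less the wild-type mean, in log2 units. Each SE is the moderated standard error of that fit, drawn towards a value shared by all tested genes. It is therefore not the spread of a gene's own arrays. It can be much larger where those arrays lie close together, and smaller where they lie far apart. Signals of different probe sets are not compared with each other.

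Across the arrays, the 12708 genes correlated at 0.994 between the knockout arrays, 0.992 between the wild-type arrays and 0.970 to 0.975 between the groups. The targeted gene Mmp14 had 5.77 and 5.84 log2 in knockout cells and 8.77 and 8.83 log2 in wild-type cells. All 13 skeletal stem and stromal markers with a probe set, among them the mesenchymal transcription factor gene Prrx1, were above the limit in all 4 arrays. Of these 13, 3 were higher in knockout cells, 2 were lower and 8 were not called, beside 11.3% called among all tested genes. The 5, named after their values were seen, were Cxcl12 (1.81), Pdgfra (1.77), Nt5e (1.10), Cd44 (−0.45) and Lepr (−2.26), with limma adjusted p from 0.000995 for Lepr to 0.0464 for Cd44, and the call of Cd44 was lost on leaving out any 1 array. Summed linear intensity of the list was 8432 to 8539 in knockout arrays and 8279 to 8294 in wild-type arrays. Of 43 markers of other cell types, 15 were above the limit in all 4 arrays and 21 were below it in all 4. The leukocyte gene Ptprc (CD45) belonged to those 21, but 5 other leukocyte markers, among them Cd68, belonged to those 15. Of 4 sex-linked genes, Xist, the RNA that coats the inactive X chromosome, was higher by 0.73 (limma adjusted p = 0.0155), and the Y-linked gene Eif2s3y fell by 0.69 (limma adjusted p = 0.0474). The Y-linked genes Kdm5d (−0.42, limma adjusted p = 0.104) and Uty (−0.25, limma adjusted p = 0.52) were not called. The call of Xist was lost on leaving out knockout array 1 (adjusted p = 0.0801), and that of Eif2s3y on leaving out knockout array 1 (0.176), knockout array 2 (0.0648) or wild-type array 1 (0.107). All 4 sex-linked genes were above the limit in all 4 arrays. Their log2 signals were 8.45 to 9.30 (Xist), 5.19 to 6.18 (Eif2s3y), 3.84 to 4.45 (Kdm5d) and 3.98 to 4.64 (Uty). Each array thus held signal of both Xist and Y-linked genes. Whether an array held cells of both sexes, and in what mix, was not tested. The part of the stromal markers and sex-linked genes in the results was not tested.

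Within the family, Rassf4 was higher and Rassf2 and Rassf3 were lower in knockout cells, while the other 6 measured members differed by −0.13 to 0.13 log2. In the fit over all genes, Rassf4, Rassf2 and Rassf3, all of the C-terminal class, were the 3 of 7 members in it to pass the threshold, which is given only as a description. Among all tested genes 11.3% were called, 6.20% higher and 5.12% lower. Because Rassf4 in this contrast chose the family, nothing is read from the members' count or from their calls. In RNA of whole cultures, fewer cells of a type and less RNA per cell cannot be told apart.

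**Figure D1:**
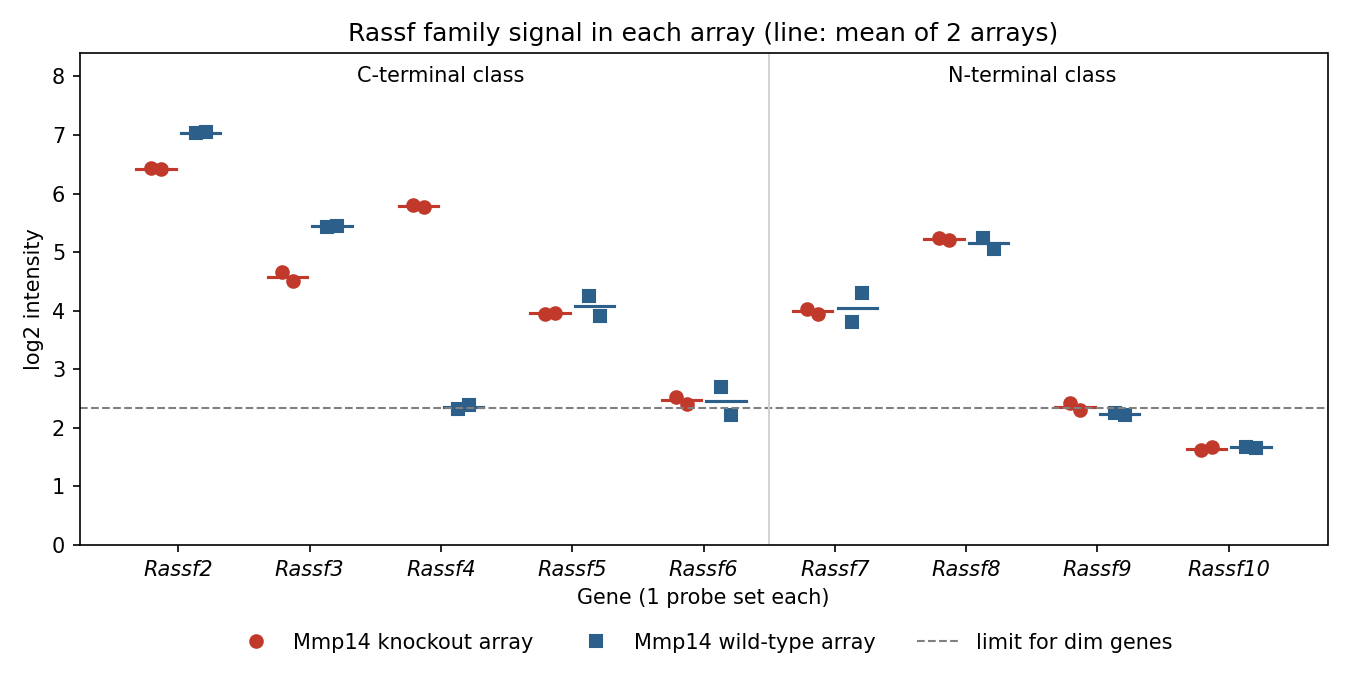
The log2 intensity of each measured Rassf gene is plotted for each array, with knockout arrays (circles) to the left of wild-type arrays (squares); short lines are means of 2 arrays and the dashed line is the limit for dim genes, 2.34 log2. Rassf4 stands near 5.8 in knockout arrays and at the limit in wild-type arrays, Rassf2 and Rassf3 are lower in knockout arrays, and Rassf9 and Rassf10 lie close to or below the limit throughout.

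Rassf4, whose human protein binds K-Ras and can promote apoptosis and which also takes part in store-operated calcium entry, had 5.81 and 5.76 log2 in the knockout arrays, against 2.32 and 2.39 log2 in the wild-type arrays. The groups did not overlap, and the signals differed by 3.44 (SE 0.10, n = 2 per group). The wild-type mean of 2.35 ± 0.05 (SD, n = 2) exceeded the limit for dim genes by only 0.0075 log2, and 1 of the wild-type arrays lay below it. With wild type at background the size of this difference is uncertain, and neither a fold nor a rank among genes is given.

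Rassf2, a tumour suppressor whose human protein binds K-Ras and stabilises MST1 and MST2, had 6.43 and 6.42 log2 in the knockout arrays, against 7.03 and 7.04 log2 in the wild-type arrays. It fell by 0.61 (SE 0.10, n = 2 per group), leaving 65.5% of the wild-type signal. The knockout arrays were both below the wild-type arrays, and arrays of 1 group differed by far less than the groups did. Rassf2 no longer passed the threshold of the fit on leaving out knockout array 1 (difference −0.62), knockout array 2 (−0.60) or wild-type array 2 (−0.60), nor when every probe set was fitted at once (−0.61).

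Rassf3, whose human protein helps stabilise p53 through MDM2, had 4.66 and 4.50 log2 in the knockout arrays and 5.43 and 5.45 log2 in the wild-type arrays. The difference was −0.86 (SE 0.11, n = 2 per group), and 55.0% of the wild-type signal was left. Again the groups did not overlap, and this difference was larger than the gap of the knockout arrays from each other. Rassf3 still passed that threshold on leaving out any 1 array, with differences from −0.94 to −0.79, but not when every probe set was fitted at once.

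**Figure D2:**
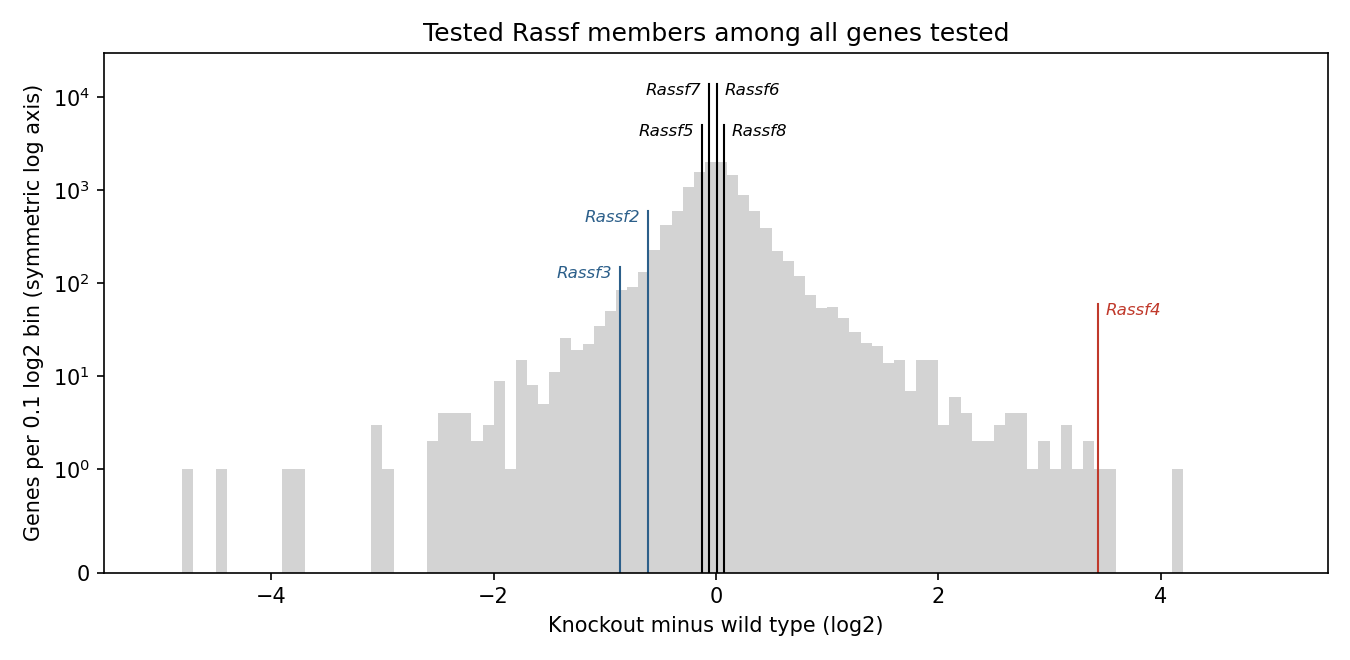
The grey bars count all 12708 tested genes by their knockout minus wild type difference (log2, bins of 0.1, symmetric log axis), and vertical lines place the 7 tested Rassf members, red for called higher, blue for called lower and black for not called; line heights only separate the labels. Rassf4 is drawn at 3.44, a value of uncertain size because its wild-type arrays are at background, Rassf3 at −0.86 and Rassf2 at −0.61 lie left of the main body, and the other 4 tested members lie near 0.

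The remaining members of the C-terminal class were not called. Rassf5 (also named Nore1 or Rapl), which links Rap1 to integrin adhesion in lymphocytes, had 3.94 and 3.97 log2 in knockout arrays and 4.25 and 3.92 log2 in wild-type arrays. Its groups overlapped, and the difference was −0.13 (SE 0.14). Rassf6, which promotes apoptosis in human cells, had 2.53 and 2.40 log2 in knockout arrays and 2.69 and 2.22 log2 in wild-type arrays, for a difference of 0.01 (SE 0.17). Both groups of Rassf6 lay close to the limit, so no size of change can be given.

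In the N-terminal class no tested member was called. Rassf7, which is needed for spindle formation in Xenopus embryos, had 4.03 and 3.95 log2 in knockout arrays and 3.80 and 4.30 log2 in wild-type arrays, and its difference was −0.06 (SE 0.18). The wild-type arrays of Rassf7 enclosed both knockout values. Rassf8, tied to cell junctions and, in Drosophila, to the ASPP protein, had 5.24 and 5.21 log2 in knockout arrays and 5.25 and 5.05 log2 in wild-type arrays, a difference of 0.07 (SE 0.11).

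Rassf9 and Rassf10 were too dim to be tested. Rassf9, first described as a binding protein of the peptide-amidating enzyme PAM, had 2.42 and 2.31 log2 in knockout arrays and 2.25 and 2.22 log2 in wild-type arrays. These values did not overlap, but 3 of the 4 were below the limit. Rassf10 had 1.63 and 1.67 log2 in knockout arrays and 1.67 and 1.66 log2 in wild-type arrays, all below it. Groups that do not overlap were also found for 57.8% of all tested genes, against 3 of the 7 tested members.

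**Figure D3:**
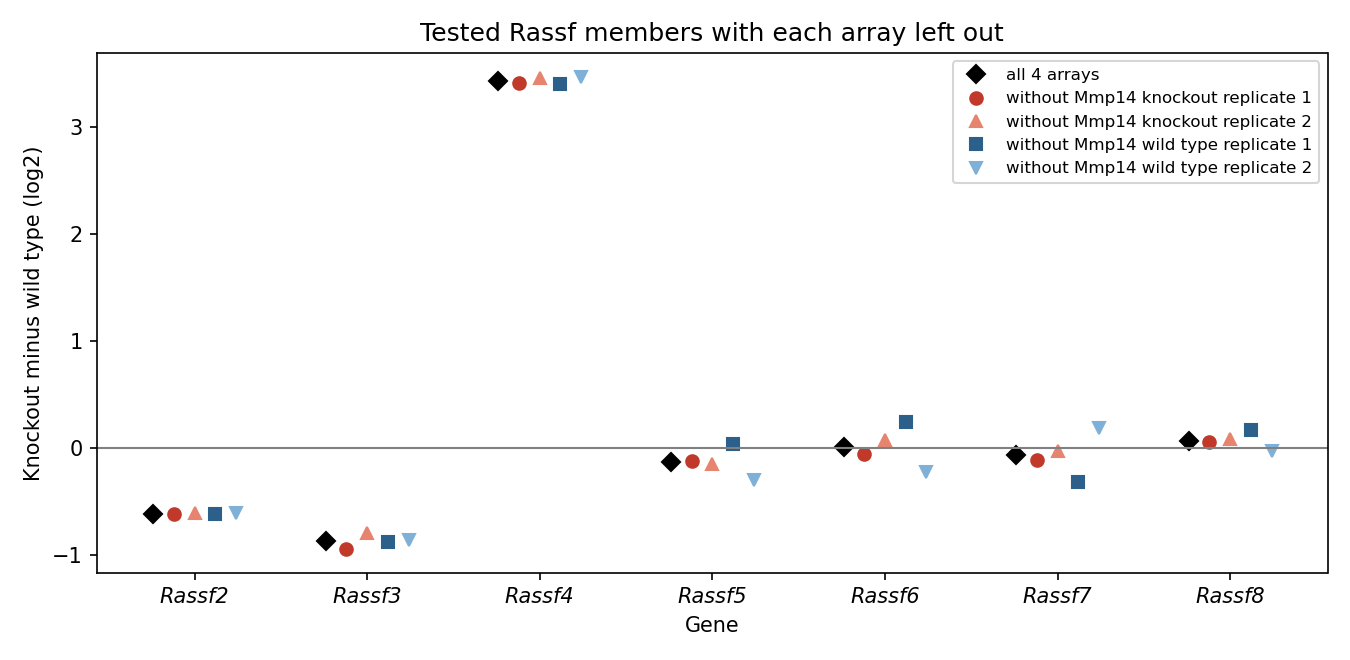
For each of the 7 tested Rassf members, the knockout minus wild type difference (log2) is plotted with all 4 arrays (diamonds) and with each array left out in turn. Rassf4 stays between 3.40 and 3.47, Rassf3 between −0.94 and −0.79 and Rassf2 between −0.62 and −0.60, whereas Rassf5, Rassf6, Rassf7 and Rassf8 each take values on both sides of 0.

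Members differed in how far 1 array moved them. On leaving out single arrays, the difference of Rassf5 ran from −0.29 to 0.04, that of Rassf6 from −0.22 to 0.25, that of Rassf7 from −0.32 to 0.19 and that of Rassf8 from −0.02 to 0.17. Each of these 4 genes took both signs, so no direction is given for them. In each of them the wild-type arrays lay further apart than the knockout arrays, with SDs of 0.14 to 0.35 log2 in wild type and 0.02 to 0.09 log2 in knockout. Each SD rests on 2 arrays. Over all tested genes the median gap between replicates was also wider in wild type (0.14 log2) than in knockout (0.12 log2). In Rassf3, Rassf9 and Rassf10 the knockout arrays lay further apart.

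The partners of the family were described through 7 lists of 93 genes, of which 76 were tested: 3 rose, 4 fell (Rasgrp1 among them, which knockout arrays had below the limit) and 69 were not called. The called share was 9.21%, against 11.3% of all tested genes. In single lists it ran from 0% to 22.2%, and with so few genes in each list nothing is read from these shares. The median difference of the 76 genes was 0.03, beside −0.0041 for all tested genes.

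Of the Hippo kinase cascade, which the SARAH domain engages, 0 of 12 tested genes were called at a limma adjusted p below 0.05, with a median of 0.08 and differences from −0.40 to 0.42. Stk4, the MST1 kinase gene, had 4.63 and 4.58 log2 in knockout arrays and 4.53 and 4.55 log2 in wild-type arrays, a difference of 0.06 (limma adjusted p = 0.731). The gene of its adaptor, Sav1, had 7.74 and 7.72 log2 in knockout arrays, against 7.39 and 7.57 log2 in wild-type arrays (difference 0.24, limma adjusted p = 0.225). Stk3 was not analysed here. Frmd6 (0.17), Wwc2 (−0.09) and Taok2 (−0.11), genes of upstream regulators of the cascade, were not called.

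Among the Hippo effectors YAP and TAZ, their TEAD partners and binding proteins, 1 of 14 tested genes rose and 13 were not called (median 0.03). Amotl1, an angiomotin family gene whose protein binds YAP, had 7.85 and 7.79 log2 in knockout arrays and 7.34 and 7.18 log2 in wild-type arrays. It rose by 0.56 (SE 0.11, limma adjusted p = 0.0282), but the call was lost on leaving out knockout array 1 (adjusted p = 0.137), knockout array 2 (0.0883) or wild-type array 2 (0.0894), and with every probe set in the fit (0.166). Vgll3, a TEAD cofactor gene (−0.16), and the phosphatase gene Ptpn14 (0.35), whose protein binds YAP, were not called.

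**Figure D4:**
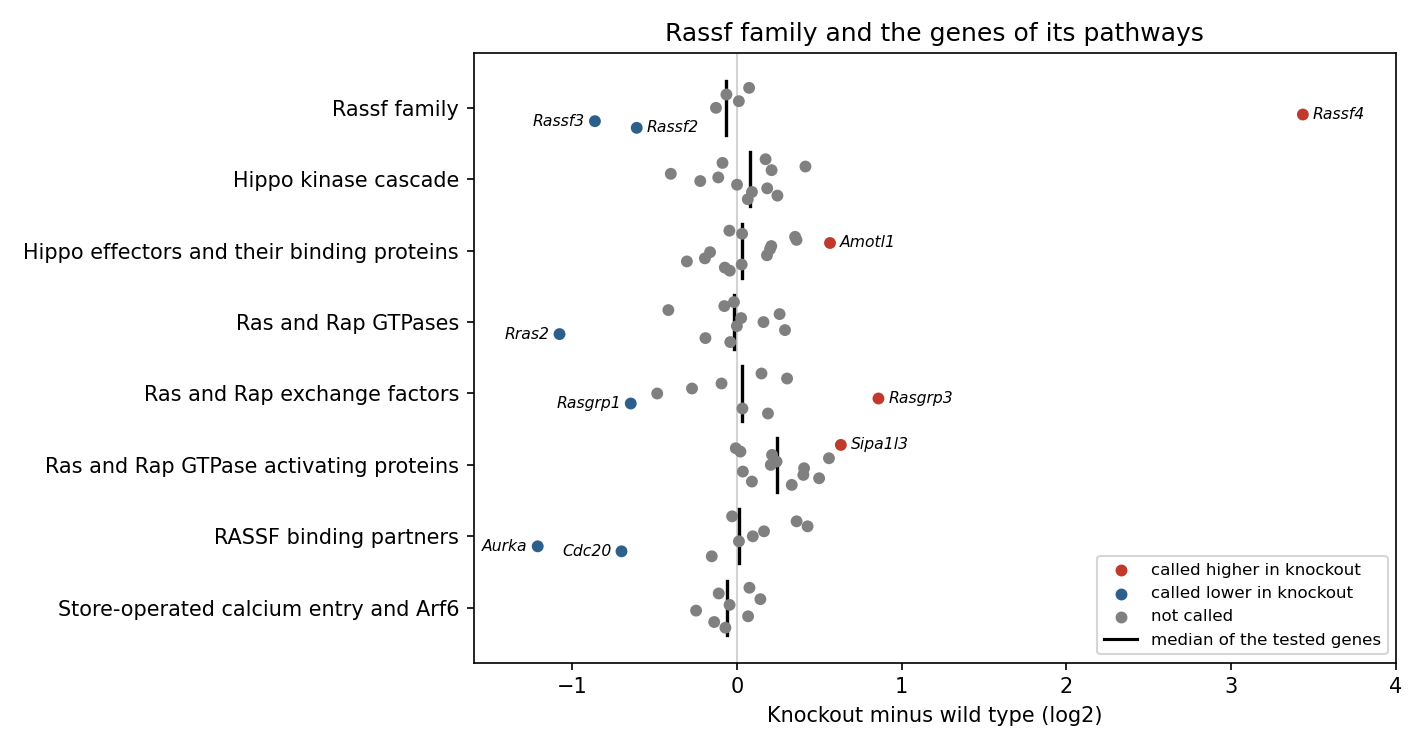
Each point is a tested gene, placed by its knockout minus wild type difference (log2) in the Rassf family or in 1 of 7 partner lists; red points were called higher, blue points lower and grey points were not called, and black bars are medians of the tested genes. The 76 tested partner genes lie between −1.21 (Aurka) and 0.86 (Rasgrp3); Rassf4, by which the family was chosen, is drawn at 3.44, a value of uncertain size because its wild-type arrays are at background.

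Ras-like GTPases are what the Ras association domain can bind. Of 11 tested Ras and Rap GTPase genes, 0 rose, 1 fell and 10 were not called (median −0.02). Rras2, the gene of the Ras relative TC21, had 6.15 and 6.22 log2 in knockout arrays and 7.27 and 7.26 log2 in wild-type arrays, and fell by 1.08 (SE 0.10, limma adjusted p = 0.00283). Its groups were well separated, and Rras2 was called in the fit of every probe set as well (adjusted p = 0.047). Rap1b (−0.0013), which encodes a Rap1 protein, and Rras (−0.19) were not called.

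Exchange factors switch Ras and Rap on. Of 9 tested genes of this kind, 1 rose, 1 fell and 7 were not called (median 0.03). This called share was 22.2%, beside 11.3% of all tested genes, and nothing is read from it. Rasgrp3 had 4.46 and 4.24 log2 in knockout arrays and 3.67 and 3.32 log2 in wild-type arrays, a rise of 0.86 (SE 0.16, limma adjusted p = 0.0222). The call was lost on leaving out knockout array 1 (adjusted p = 0.0836) or wild-type array 2 (0.0611), and with every probe set in the fit (0.149). Its relative Rasgrp1 had 2.25 and 2.27 log2 in knockout arrays, below the limit for dim genes, and 3.07 and 2.74 log2 in wild-type arrays, so no fold is given. Rasgrp1 passed the filter on dim genes only through the wild-type arrays, where it is higher, so its place among the genes that fell supports nothing here, and without the filter it was not called (limma adjusted p = 0.0551). Rapgef1, an exchange factor gene for Rap1, had a difference of −0.27 and was not called.

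GTPase activating proteins switch Ras and Rap off. Of 13 tested genes, 1 rose and 12 were not called. Their median was 0.24, and 12 of the 13 differences were above 0, beside 49.3% of all tested genes. Among those 12, Sipa1l1 (0.02), Rasal2 (0.04), Rasa2 (0.09) and Rap1gap (0.24) had groups that overlapped, and the rest did not. The called share was 7.69%, beside 11.3% of all tested genes. The list was chosen with earlier results known, and its genes share arrays, so nothing is read from the median, count or share. Sipa1l3, of a family that acts on Rap, had 6.76 and 6.63 log2 in knockout arrays and 6.08 and 6.06 log2 in wild-type arrays, a rise of 0.63 (SE 0.11, limma adjusted p = 0.0175). This call was lost on leaving out knockout array 1 (adjusted p = 0.104) or wild-type array 2 (0.0579) and with every probe set in the fit (0.124). Rasa1 (0.33), a Ras-specific activating protein gene, and Sipa1l1 (0.02) were not called.

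Binding partners reported for individual RASSF proteins included 2 that fell, 0 that rose and 7 that were not called of 9 tested (median 0.01). The called share was 22.2%, from 2 genes only, beside 11.3% of all tested genes, and nothing is read from it. The 7 uncalled genes differed by −0.15 (Map1s) to 0.43 (Pawr). Both genes that fell act in mitosis. Human RASSF1A has been reported to bind their proteins, but Rassf1 had no value here, and a link to RASSF proteins was not tested. Aurka, a spindle kinase gene, had 3.31 and 3.76 log2 in knockout arrays and 4.79 and 4.70 log2 in wild-type arrays, a fall of 1.21 (SE 0.17, limma adjusted p = 0.00982). Cdc20, an activator gene of the anaphase-promoting complex, had 4.51 and 4.61 log2 in knockout arrays and 5.32 and 5.21 log2 in wild-type arrays, with a difference of −0.70 (SE 0.11, limma adjusted p = 0.0134). With every probe set in the fit neither was called (adjusted p = 0.0956 for Aurka and 0.107 for Cdc20), and Cdc20 was also lost on leaving out knockout array 1 (0.073). Pam, the gene of the enzyme that Rassf9 binds, had a difference of 0.36 and was not called.

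Store-operated calcium entry, with Arf6 and the kinases that make the lipid PI(4,5)P2, is a process in which Rassf4 has been placed in human cells. Of 8 tested genes of this list, 0 were called at a limma adjusted p below 0.05, with differences from −0.25 to 0.14 and a median of −0.06. Pip5k1a (−0.11), Arf6 (0.14) and the calcium sensor gene Stim2 (−0.14) stayed within 0.15 log2 of 0. A second, dimmer probe set of Arf6 gave 0.39.

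The genes whose profile over the 4 arrays was closest to that of Rassf4 were Col14a1, Slc14a1, Mmp13, Angptl7 and Stk32b. Likeness was the Euclidean distance between profiles centred on each gene's own mean, and it ranged from 0.35 for Col14a1 to 0.59 for Stk32b. Col14a1, a fibril-associated collagen gene, had 6.43 and 6.05 log2 in knockout arrays and 3.08 and 2.97 log2 in wild-type arrays. Slc14a1, a urea transporter gene, had 5.97 and 5.69 log2 in knockout arrays and 2.68 and 2.25 log2 in wild-type arrays, with 1 wild-type array below the limit for dim genes. Over 4 arrays in 2 groups, this likeness mostly restates that all 6 genes differed between the groups by 3.02 to 3.57 log2.

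**Figure D5:**
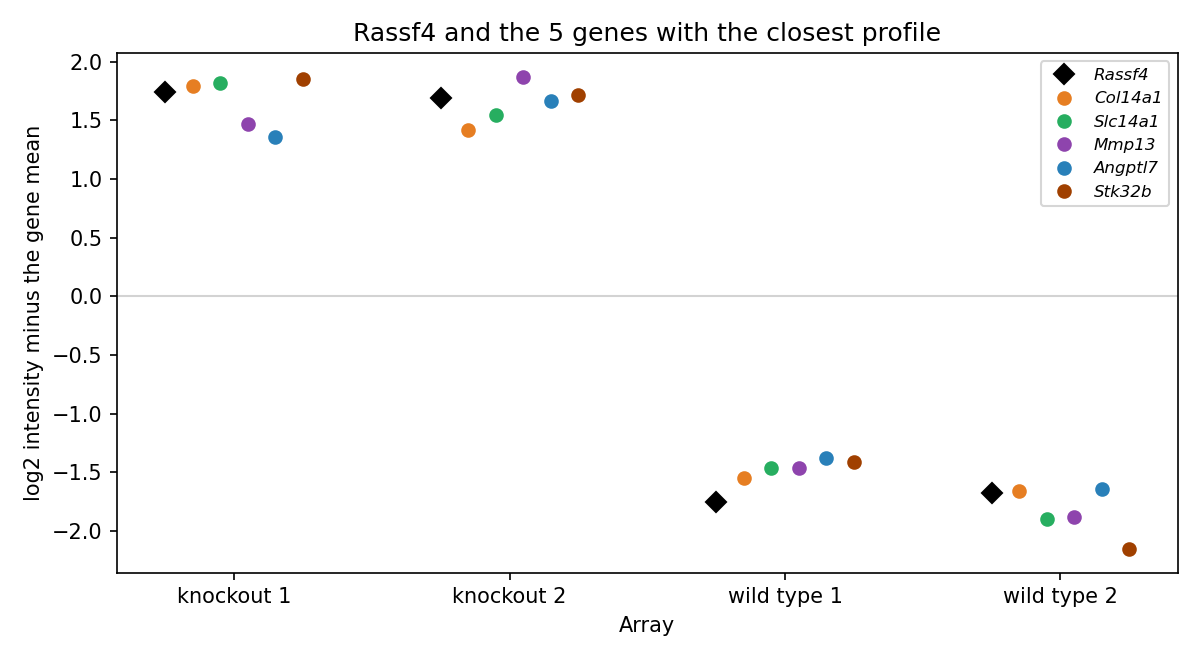
For Rassf4 (diamonds) and the 5 genes nearest to it (circles), the log2 intensity minus the gene's own mean is plotted for each array, with knockout arrays left of wild-type arrays. All 6 genes lie above 0 in both knockout arrays and below 0 in both wild-type arrays, and Rassf4 has replicates closer together than the other 5.

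Markers of other cell types that could be present were measured beside these results. Of the 10 leukocyte markers, 5 were above the limit in all 4 arrays and 4 were below it in all 4. Only 5 of the 10 were tested, and 0 were called. The summed linear intensity of the 10 was 63.3 to 70.2 in knockout arrays and 69.8 to 79.3 in wild-type arrays. Pericyte and smooth muscle markers summed to 71.0 to 72.9 in knockout arrays and 60.9 to 61.0 in wild-type arrays. Of 4 markers, Mcam was higher (0.69, limma adjusted p = 0.0142) and Rgs5 lower (−1.07, limma adjusted p = 0.0102). Rgs5 had 2.47 and 2.65 log2 in knockout arrays, close to the limit. When the probe sets of each gene were averaged, Rgs5 was too dim to be tested. With every probe set in the fit neither was called (limma adjusted p = 0.11 for Mcam and 0.0976 for Rgs5). On leaving out knockout array 1, Mcam differed by 0.62 and lost its call. Of 6 skeletal muscle markers, the muscle stem cell gene Pax7 rose (1.31, limma adjusted p = 0.00221) and the others were not called or too dim to test, and the sum was 99.1 to 110.2 in knockout arrays and 75.5 to 83.3 in wild-type arrays. The 2 Schwann and neural markers with a probe set summed to 35.0 to 49.97 in knockout arrays and 20.1 to 27.98 in wild-type arrays. The 4 osteoclast markers summed to 42.2 to 44.1 in knockout arrays and 52.9 to 63.3 in wild-type arrays. Both sums rest mostly on 1 gene, the only one tested: S100b (1.02, limma adjusted p = 0.0604) and Acp5 (−0.56, limma adjusted p = 0.0528). Neither was called. Sox10, the other Schwann and neural marker, was below the limit in all 4 arrays and differed by −0.48. The osteoclast markers Calcr and Dcstamp were also below the limit in all 4 arrays. The part of these markers in the differences of Rassf4, Rassf2 and Rassf3 was not tested.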

How the data were processed

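The authors deposited log2 intensities for 41345 probe sets, 1 value for each array. Of tools, limma and oligo are listed, per the submitters' processing notes, without versions; the normalization method and genome build are not given in the sources used here. Array medians ran from 2.32 to 2.37 log2, and the number of arrays limits the precision. Symbols came from the platform annotation: 23521 probe sets had 1 symbol, 1814 several and 16010 none listed. Where a gene had several probe sets, the brightest on average was used.

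The groups were contrasted by a linear model with moderated variances (limma 3.58.1 in R 4.3.3), two-sided, on 2 residual degrees of freedom, with Benjamini-Hochberg adjustment over 12708 genes. Arrays sharing a replicate number were left unpaired.

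The members, the lists and the tests were chosen with earlier results of these data known. Named were all members, called genes of each partner list (up to 6) filled to 3 with the uncalled genes of highest mean, Stk4 and Sav1, the 5 genes closest to Rassf4 in profile, and markers where a result turned on them. Alternatives covered filters, scaling, variance model, array weights, probe sets, a replicate block, thresholds and left-out arrays.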

Additional observations from a re-analysis of the deposited data

How the results depend on the processing

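Filters, variance models, array weights, probe set choices and the block leave the differences of the members as they are by construction, so they bear only on the calls. Scaling and left-out arrays can move them, and over these Rassf2 ran from −0.63 to −0.59, Rassf3 from −0.94 to −0.79 and Rassf4, chosen for its direction and with wild type at background, from 3.40 to 3.47 log2. Rassf4 could not be fitted under the stricter filter (mean of at least 4.76 log2), which left it out. Of the 3 called members, Rassf2 and Rassf3 stayed called under the stricter filter. Rassf3 alone of these 2 was called at an adjusted p below 0.01, and neither was with every probe set in 1 fit. Rassf4 was chosen by its rise in this contrast, so its calls under any setting support nothing. On leaving out single arrays, a lone array is assumed to vary like the other group. Genes called numbered 1439, against 218 with every probe set in the fit (187 of the 1439 kept), 2365 at an adjusted p below 0.1, 459 below 0.01, and 687 to 1131 without single arrays. The 7 called partner genes became 12 under the stricter filter (4 of the 7 kept), 14 with trend and robust eBayes, 14 at an adjusted p below 0.1, 2 below 0.01, 1 with every probe set, and 2 to 6 without single arrays. With the replicate number as a block, 1057 genes, the same 3 members and 5 partner genes were called, and Amotl1 (adjusted p = 0.0502) and Rasgrp1 (0.0567) were not; deviations of same-numbered arrays correlated at −0.04, so the numbers were not taken as pairs. Across the members other than Rassf4 and the named partner, profile, marker and sex-linked genes, 566 values under alternatives stayed on their side of the threshold, 44 lost and 4 gained a call, and no called difference changed sign. The causes were not tested. Without detection calls, signals near 2.34 log2 give no size of change.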

Other observations

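The genes next to the members that differed were looked up after their values were seen, using only the gene order of the RefSeq annotation (GRCm38.p6) among protein-coding genes with a 1-symbol probe set. The first 2 such genes on each side of Rassf4 (Olfr214 and Olfr215, Depp1 and Tmem72) were below the limit for dim genes in all 4 arrays. Their differences ran from −0.10 to 0.18 log2. On 1 side of Rassf3 lay Tbc1d30 and Wif1, a gene of a secreted Wnt inhibitor. Tbc1d30 had 1.86 and 1.65 log2 in knockout arrays, below the limit, and 2.93 and 2.87 log2 in wild-type arrays. Wif1 had 2.45 and 2.26 log2 in knockout arrays, at the limit, and 4.25 and 3.42 log2 in wild-type arrays. On the other side, the kinase gene Tbk1 had 7.20 and 7.03 log2 in knockout arrays and 7.01 and 6.92 log2 in wild-type arrays, and Xpot differed by −0.13. The genes next to Rassf2 that were bright enough to be tested, Slc23a2 and Tmem230, each differed by −0.14 and were not called. On the other side of Rassf2 lay Prnd and Erv3, both too dim to be tested. Prnd had 2.08 and 1.61 log2 in knockout arrays and 2.35 and 2.24 log2 in wild-type arrays, and Erv3 differed by −0.15.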
